A study of Drosophila ananassae and Drosophila erecta and Drosophila sechellia with 40 samples.

Results

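The 73 genes described here encode the proteins of the mitochondrial ribosome. They are all rows of the 4 expression tables whose name begins with mRpL, for the large subunit (47 genes), or mRpS, for the small subunit (26 genes). The tables hold 24678 rows at the earliest stage and 24874, 25602 and 25214 at the later ones. RNA was sequenced from the developing and adult antenna, the main olfactory organ of the fly, in wild-type strains of D. sechellia, D. erecta, D. ananassae, D. virilis and D. simulans, at 4 stages with 2 libraries for each species and stage (40 libraries). The stages were antennal discs of wandering last-instar larvae (3L), discs 8 h after puparium formation (p8), antennae 40 h after puparium formation (p40) and antennae of adults of both sexes (AA). D. virilis, which develops more slowly, was collected at 10 h and 48 h in place of 8 h and 40 h. Each library pooled tissue from about 70 animals, or about 300 adults, of stocks reared at 20 °C. Pupae were aged in a warmer incubator. All strains were labelled wild-type and none was treated. D. sechellia and D. erecta are host-plant specialists, which live on noni and screw pine fruit, whereas D. simulans is a generalist.

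Mitochondria keep a ribosome of their own, descended from a bacterial one, that makes the few hydrophobic subunits of the respiratory chain and ATP synthase encoded in mitochondrial DNA. Its RNA is mitochondrial but every protein of it is a nuclear gene product, imported after synthesis in the cytoplasm. Some of these proteins have a bacterial counterpart and bear its number. Others were added during the evolution of mitochondria. By its number, a bacterial counterpart was assigned to 42 of the 73 genes and none to the other 31. The number rule is approximate, since some counterparts, such as that of mRpL47, bear another number. The subunit in the name follows older usage: in mammals the proteins named S30 and S18A sit in the large subunit. Neurons depend on oxidative phosphorylation, and antennal neurons arise, extend axons and mature over the stages sampled.

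Of the 73 genes, 63 (41 of the large and 22 of the small subunit) were above 0 in all species, and these 63 entered every comparison over 5 species. Listed at 0 in all D. simulans columns were mRpL1, mRpL14, mRpL34, mRpL54, mRpS14, mRpS26 and mRpS35, at 0 in D. ananassae mRpL13, and at 0 in D. virilis mRpL49. For mRpS5 every species with libraries was listed at 0, while the authors' D. melanogaster means were 3377, 6282, 3272 and 9157 at 3L, p8, p40 and AA. Since reads were matched to each species' own transcript models, a listed 0 says nothing of whether a species expresses the gene.

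The tables give 1 mean per species and stage, from which the reads of both libraries were recovered (see the account of processing). Recovered reads per library numbered 8753765 to 14682128 at 3L, 17767648 to 26658372 at p8, 11738398 to 23729891 at p40 and 9098507 to 19518505 at AA. These numbers leave out transcripts that could not be split, so they understate the depth of the libraries at 3L and AA. Within a species the libraries are called the deeper and the shallower library, since nothing ties them to a replicate number. The deeper one is that with the larger scaling factor in the authors' normalisation. In D. erecta it held slightly fewer recovered reads than the shallower one at p8 (18392572 against 18424750) and at AA (12585349 against 13150922). All mitoribosomal values were recovered, with a median of 284 to 533 reads by stage and a lowest value of 16 reads. The lowest share of a column's total recovered was 54.4% at 3L and 65.9% at AA, because the most abundant transcripts could not be split between libraries. Both libraries of a species usually lay close, with a median difference of 0.09 to 0.21 on the log2 scale over these genes. D. simulans stood apart at p8, where its shallower library was higher by a median of 0.42 (0.26 over all genes), and at p40, where its deeper library was higher by 0.29 (0.18 over all genes). The D. simulans steps are therefore also given below with 1 library of those stages. A whole antenna is a mixture of cells, so fewer cells of a type and less RNA per cell cannot be told apart.

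The first comparison asked how the mitoribosomal genes moved through development. Most were lower at p8 than at 3L, most were lower at p40 than at p8, and nearly all rose in the adult. Between stages values are given as scaled reads, that is reads divided by a size factor (median of ratios) common to all 40 libraries. They were tested with limma on log2(scaled reads + 1), as the mean change of the 5 species, with Benjamini-Hochberg adjustment over 8012 genes. The SE and p of that mean change rest on the spread between libraries of the same species and stage. They do not measure how far the change varied between species. At p8, 56 of the 63 genes were lower than at 3L, 0 were higher and 7 were not called. Over all genes 68.8% were called, 33.5% lower and 35.3% higher. The median change was -0.40 on the log2 scale (0.760-fold), with quartiles of -0.48 and -0.28, whereas the median of all genes was 0.00.

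**Figure D1:**
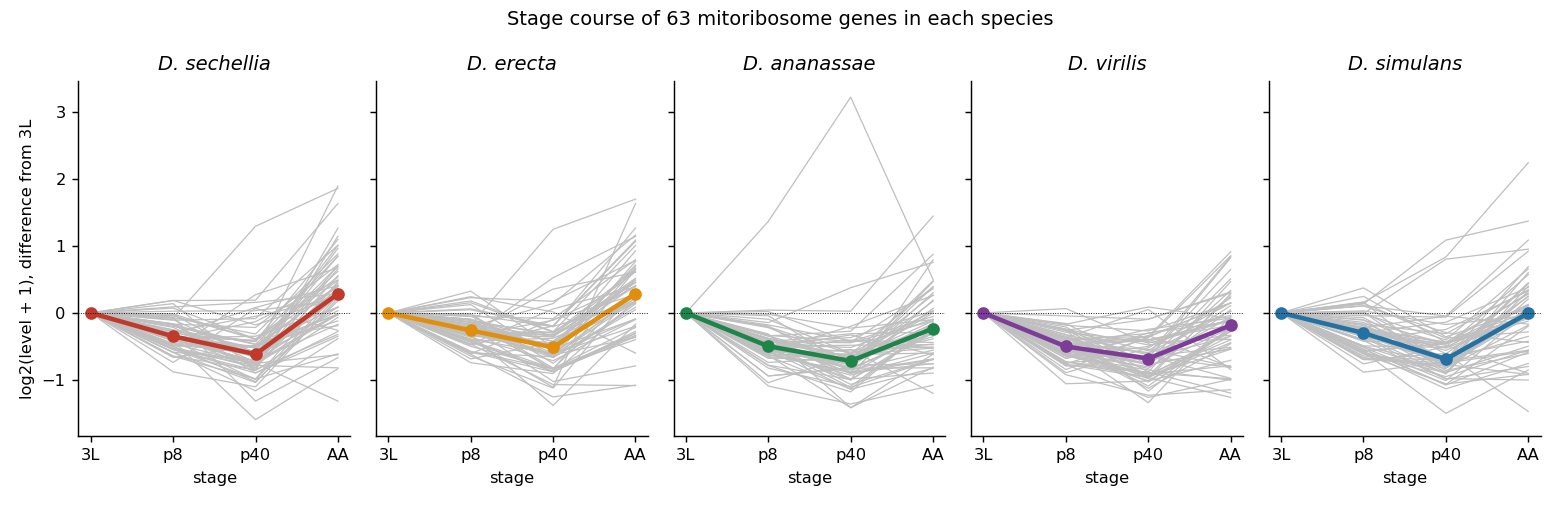
Course of the 63 mitoribosomal genes in each of 5 species. The y axis is the log2 difference of the mean scaled reads from 3L, the x axis the stage, each grey line 1 gene and the heavy line the median. In every panel the median lies below 0 at p8 and p40 and returns upward at AA.

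Both of the largest falls at p8 were in large subunit genes. mRpL23 encodes a protein at the exit of the peptide tunnel. Its 10 libraries held 189 to 415 scaled reads at p8 (median 284), against 342 to 668 at 3L (median 478). Its change was -0.72 ± 0.09 (SE, limma, adjusted p = 1.5e-07), and within each species both p8 libraries lay below both 3L libraries. mRpL12, a protein of the stalk that receives translation factors, held 407 to 843 scaled reads at p8 (median 509), against 653 to 1416 at 3L (median 794). Its change was -0.72 ± 0.07 (limma, adjusted p = 1.8e-09). Although the pooled ranges of mRpL12 overlap, as do those of mRpL23, both of its p8 libraries lay below both 3L libraries in each species. mRpL2, a protein of the ribosome's catalytic core, changed by -0.61 and the small subunit gene mRpS10 by -0.59. mRpL36 (-0.54), mRpS29 (-0.52), mRpL15 (-0.51) and mRpL27 (-0.51) came next among genes without overlap in any species. In mammals the counterpart of mRpS29 is the GTP-binding protein DAP3, and L27 lies near the peptidyl transferase centre in bacteria. The 7 genes not called were mRpL28 (0.07), mRpL22 (0.01), mRpS17 (-0.01), mRpL37 (-0.04), mRpL33 (-0.09), mRpL42 (-0.11) and mRpL52 (-0.19).

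At p40 relative to p8, 42 genes were lower, 3 were higher and 18 were not called, where 77.8% of all genes were called, 34.3% lower and 43.4% higher. The median was -0.26 (0.835-fold), while that of all genes was 0.11. mRpL28, not called at p8, now had the largest fall. Its libraries held 329 to 596 scaled reads at p40 (median 476), against 589 to 1117 at p8 (median 827). Only the shallower D. virilis library of p8, at 589, fell within the range of the p40 libraries. The change was -0.81 ± 0.06 (SE, limma, adjusted p = 3.4e-11). mRpL27 fell by 0.80 on the log2 scale and mRpL38 by 0.58. The falls of mRpS18B (-0.50), mRpL22 (-0.50), mRpS30 (-0.47), mRpL16 (-0.42) and mRpL3 (-0.41) came next among genes without overlap in any species. The highly expressed genes without a call were mRpL12 (-0.10), mRpS7 (0.01), mRpL24 (-0.14), mRpL15 (0.09) and mRpL2 (0.06).

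The 3 genes higher at p40 were mRpL53, mRpL37 and mRpL43, all proteins of the large subunit without a bacterial counterpart. mRpL53 held 517 to 1042 scaled reads at p40 (median 854), against 318 to 575 at p8 (median 401). Both p40 libraries lay above both p8 libraries in every species, and the change was 0.93 ± 0.05 (SE, limma, adjusted p = 2.1e-14). It remained high in the adult, with 699 to 1325 scaled reads (median 1171), so mRpL53 left the common course at p40. mRpL37 changed by 0.74 ± 0.08 (limma, adjusted p = 2.8e-09), the mean of 0.82 (D. sechellia), 0.65 (D. erecta), 1.88 (D. ananassae), 0.26 (D. virilis, not called) and 0.11 (D. simulans, not called). mRpL43 changed by 0.23 ± 0.07 (limma, adjusted p = 0.0039), but this call was lost without D. simulans, where the change was 0.11.

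In the adult antenna 59 genes were higher than at p40, 2 were lower and 2 were not called. Of all genes 80.7% were called, 41.1% higher and 39.6% lower. The median was 0.63 (1.54-fold) and that of all genes 0.02. mRpL28 rose the most. It held 1019 to 1668 scaled reads at AA (median 1328), against 329 to 596 at p40 (median 476). No adult library overlapped any p40 library, and the change was 1.48 ± 0.06 (SE, limma, adjusted p = 1.7e-16). mRpS34, a small subunit protein without a bacterial counterpart, held 279 to 532 scaled reads at AA (median 429), against 120.3 to 247 at p40 (median 195), again with no overlap. Its change was 1.13 ± 0.07 (limma, adjusted p = 4.1e-13). mRpL45, whose mammalian counterpart holds the ribosome to the inner membrane, rose by 1.06 ± 0.06 (limma, adjusted p = 2.0e-14). mRpL23 (1.03), mRpS21 (1.01), mRpS18B (0.99), mRpL41 (0.97) and mRpL24 (0.97) completed the largest rises without overlap in any species. The 2 genes that fell were mRpL37 (-0.37 ± 0.08) and mRpS10 (-0.23 ± 0.07). mRpS10 was not called without D. simulans (-0.07) or with the authors' scaling (-0.07). mRpS24 (0.07) and mRpL30 (0.14) were not called.

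**Figure D2:**
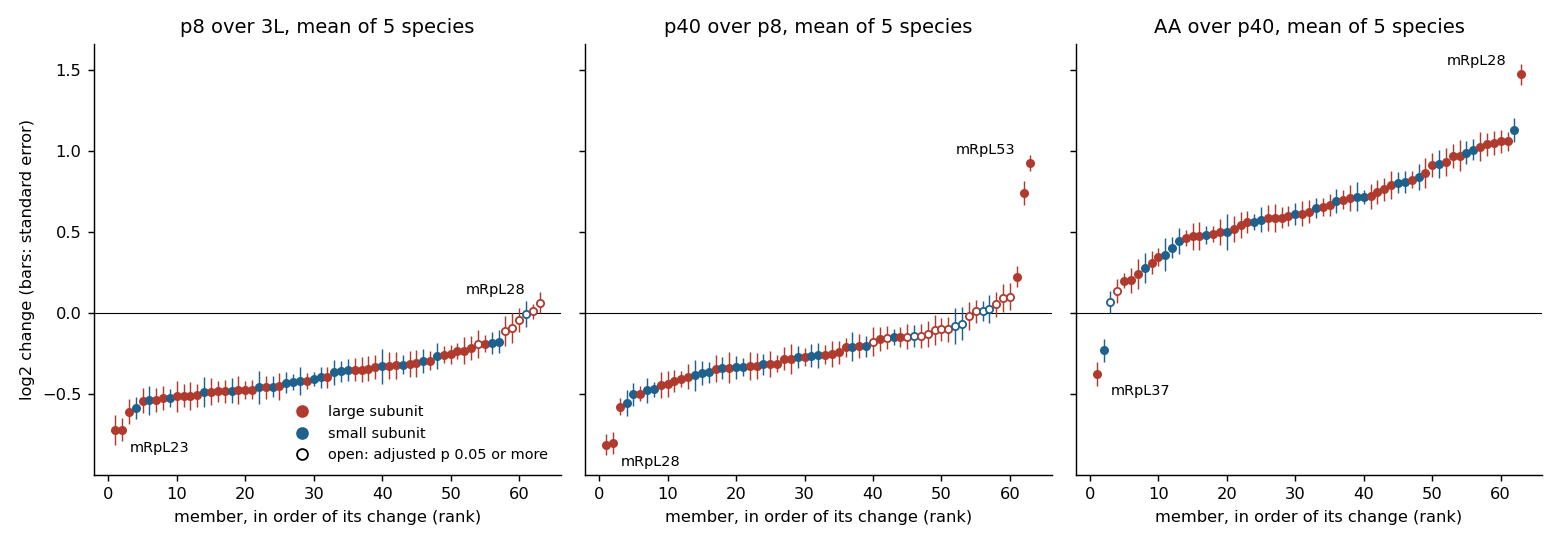
Change of each of 63 mitoribosomal genes at the 3 steps between neighbouring stages. The y axis is the mean log2 change of 5 species with its standard error, the x axis the rank of the gene, colours mark the large and the small subunit, and open symbols were not called. Nearly all genes lie below 0 at p8 over 3L and above 0 at AA over p40, while p40 over p8 has mRpL53 and mRpL37 far above the rest.

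The changes spread less from gene to gene than those of all genes. Their SD over the 63 genes was 0.17, 0.28 and 0.32 at the 3 steps, against 1.57, 1.79 and 2.19 over all genes. Large and small subunit genes moved by nearly the same amount. At p8 the large subunit had a median of -0.35 with 35 of 41 genes lower, and the small subunit -0.40 with 21 of 22 lower. At p40 the medians were -0.24 and -0.29, and in the adult 0.63 in both subunits. Both libraries of the later stage lay beyond both of the earlier one in all 5 species for 22 genes at p8 (all below), 12 genes below and 1 above at p40, and 25 genes (all above) in the adult. Over all 8012 genes 13.3% lay below and 13.7% above in this way at p8, 13.7% below and 17.6% above at p40, and 16.7% below and 18.5% above in the adult. The direction of the means was shared by all 5 species for 47, 27 and 44 of the 63 genes, where it was for 43.8%, 45.7% and 47.0% of all genes. The 47 genes at p8 all fell and the 44 in the adult all rose, where 21.6% and 24.1% of all genes did so in every species.

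By the medians the dip and the return were seen in each species, though not equally deep. At p8 D. ananassae and D. virilis both had a median change of -0.50, with 42 and 44 genes called lower, where 24.1% and 20.5% of all genes were. D. sechellia had a median of -0.36 and 24 genes lower (21.2% of all genes), D. erecta -0.26 and 17 genes (20.3%), and D. simulans -0.31 and 25 genes (21.9%). The only gene called higher was mRpL37 in D. ananassae. From p8 to p40 the 5 medians lay between -0.32 (D. simulans) and -0.17 (D. virilis). Called lower at that step were 22 genes in D. sechellia (29.4% of all genes), 27 in D. erecta (30.0%) and 29 in D. simulans (26.1%). Only 17 were lower in D. ananassae (24.0%) and 15 in D. virilis (25.2%). Called higher, with the species in that order, were 4 (35.9%), 5 (33.8%), 3 (34.9%), 3 (30.0%) and 2 (29.0%). In the adult D. sechellia had the largest median, 0.81, with 54 genes higher (33.3% of all genes), followed by D. erecta with 0.72 and 51 genes (32.3%). D. ananassae had 0.41 and 34 genes (33.4%), D. virilis 0.42 and 32 genes (32.2%), and D. simulans 0.63 and 42 genes (33.3%). With only the deeper or only the shallower D. simulans library at p8, its median at p8 over 3L was -0.49 or -0.13, with 61 or 40 genes below 0. With only the deeper or only the shallower one at p40, its median at AA over p40 was 0.39 or 0.72. At p40 over p8 its median lay between -0.52 and -0.11 with 1 library of either stage.

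The adult antenna was then set against the larval disc. Of the 63 genes, 24 were higher at AA than at 3L, 18 were lower and 21 were not called, with a median of 0.05, where 85.7% of all genes were called (47% higher, 38.7% lower). This split depended on the scaling: 6 were higher and 43 lower with upper quartile scaling (median -0.28), and 13 higher and 31 lower with the authors' scaling (median -0.13). No direction between these stages is therefore given. The other steps kept theirs under both scalings. With the authors' scaling, which moved the median of all genes to -0.30 at p8 over 3L and 0.18 at AA over p40, the members' medians were -0.71 and 0.78. Upper quartile scaling moved the median of all genes to -0.13 and -0.08, with members at -0.54 and 0.52.

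As a share of all normalised counts listed, the 63 genes made up 0.203% of the total for D. sechellia larval discs, 0.200% for D. erecta, 0.182% for D. ananassae, 0.274% for D. virilis and 0.205% for D. simulans. At p8 the shares, with the species in that order, were 0.115%, 0.115%, 0.104%, 0.152% and 0.121%, and at p40 they were 0.0983%, 0.108%, 0.103%, 0.174% and 0.110%. The adult shares were 0.220%, 0.192%, 0.146%, 0.209% and 0.193%. The authors' D. melanogaster means, which entered no test, gave 0.241%, 0.108%, 0.0966% and 0.178% over the 4 stages, lowest at p40 and higher in the adult.

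The 7 genes listed at 0 in D. simulans were tested over the other 4 species. All 7 were lower at p8 than at 3L, by -0.61 for mRpL1, -0.46 for mRpL14, -0.38 for mRpL34, -0.61 for mRpL54, -0.51 for mRpS14, -0.41 for mRpS26 and -0.60 for mRpS35. All were lower again at p40, from -0.18 for mRpS35 to -0.62 for mRpL14. In the adult all rose, from 0.33 for mRpL34 to 1.12 for mRpS35. Without D. simulans, 62 of 70 genes were called at p8 (all lower), 50 at p40 (48 lower) and 68 in the adult (67 higher), where 67.8%, 76.8% and 79.6% of all 8705 genes were called. A pair of mitoribosomal proteins have other names in the fly and fall outside the name rule. tko, the S12 protein of the decoding centre and the gene of a classic seizure-prone mutant, changed by -0.41, -0.43 and 0.28 at the 3 steps. bonsai, the S15 protein, changed by -0.41, -0.24 and 0.67.

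Other gene lists of mitochondria were set beside these. They are described by the listed means of genes above 0 in every species and stage, with no test, since many lacked recovered library values under 1 name in all 5 species. The 45 nuclear subunits of oxidative phosphorylation had a median of 0.07 at p8 over 3L, with 31 of 45 above 0, where the 63 mitoribosomal genes had -0.40 with 61 below 0. Their median was -0.31 at p40 over p8 and 1.66 at AA over p40, with all 45 above 0. SdhB, the iron-sulphur subunit of complex II, had 6672 to 10111 scaled reads as species means at AA, against 987 to 1296 at p40. It was 1 of 6 of these genes with library reads, and its adult change was 2.98 ± 0.05 (SE, limma, adjusted p = 1.5e-24). The adult change of SdhC was 2.41 and that of RFeSP, the Rieske protein of complex III, 1.95. The 11 genes of mitochondrial DNA upkeep and transcription had medians of -0.37, -0.42 and 0.85. Among them TFAM, which packages mitochondrial DNA, fell by 0.65 and 0.45 at the first steps and had a value of 0.04 in the adult, while tam, the catalytic subunit of the mitochondrial DNA polymerase, changed by -0.79, -0.78 and 0.59. Of 20 listed genes of mitochondrial translation outside the name rule, 6 could be described, and these include the mitoribosomal tko and bonsai. The 6 had medians of -0.56, -0.03 and 0.74. Slimp, an insect protein derived from a mitochondrial seryl-tRNA synthetase, changed by -1.03 at p8 and 0.78 in the adult.

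Cytoplasmic ribosomal proteins lay below 0 at every step. Their 77 genes had medians of -0.24, -0.81 and -0.65 at the 3 steps, with 76, 77 and 74 genes below 0. The 22 genes of cell division had medians of -0.21, -3.36 and -0.41. Cyclin B (CycB) changed by -0.72, -3.91 and -1.91. The 6 regulators of growth and mitochondrial genes had medians of -0.26, -0.84 and -0.26, with 4, 5 and 4 of them below 0. Among them srl is the fly homologue of the mammalian coactivator PGC-1 that promotes mitochondrial gene expression. It fell at every step, by 1.06, 1.18 and 1.15 on the log2 scale. Another of them, ewg, changed by -0.08 (not called), 0.54 and 0.36. The differences between lists were not tested.

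Marker transcripts of the organ's cells changed over the same stages. The summed scaled reads of 8 markers of antennal and neuronal cells (Orco, Ir25a, lush, Obp83a, Os-C, elav, nSyb and Syt1) lay between 632 and 1037 over the species at 3L, 1286 and 1809 at p8, 4684 and 8480 at p40, and 317624 and 563072 at AA. The adult sum was largely Obp83a (91752 to 313479) and Os-C (40145 to 165675). By the listed means 7 of the 8 markers were higher at AA than at p40 and 1, the neuronal elav, was lower. In limma elav changed by -0.28 at that step (adjusted p = 0.012), whereas nSyb changed by 1.51 (adjusted p = 3.4e-05) and Syt1 by 1.83 (adjusted p = 2.0e-10). The 5 markers of the antennal disc (Dll, hth, ss, dan and danr) summed to 8427 to 22231 at 3L, 11282 to 21305 at p8, 12177 to 33844 at p40 and 12420 to 33679 at AA. Within them dan held 1.25 to 12.4 scaled reads at AA, against 954 to 1358 at p40, and danr changed by -8.47 at that step. The other disc markers were split there: hth changed by -1.12, while ss changed by 1.61 and Dll by 0.45. Markers of tissues that can cling to a dissected antenna were also found. Muscle markers (Mhc, Act88F and up) summed to 1002 to 8373 at 3L, 199 to 11072 at p8, 1665 to 34834 at p40 and 635 to 8203 at AA. Hemocyte markers (Hml and NimC1) summed to 121 to 2164, 81.0 to 1214, 76.5 to 611 and 385 to 2684 at these stages. Fat body markers (Lsp1alpha, Lsp2 and Yp1) summed to 86.1 to 19914, 25.4 to 2396, 12.4 to 3845 and 72.7 to 2894. Eye markers (ninaE, ninaC and trp) summed to 12.1 to 101, 3.45 to 212, 34.2 to 364 and 10.8 to 12700. No marker was at 0 in all species at any stage. The part of these tissues in the mitoribosomal changes was not tested.

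The next comparison asked whether the genes followed the same course in each species. A test of the interaction of species and stage was passed by 58 of the 63 genes, a share close to the 92.4% of all genes that passed. mRpL33, mRpL40, mRpS16, mRpS2 and mRpS22 did not pass. Between pairs of species the rank correlation of the 63 genes' changes had a median over 10 pairs of 0.24, 0.24 and 0.14 at the 3 steps, a description across genes that share libraries. The ranges were 0.08 to 0.66, 0.04 to 0.54 and -0.08 to 0.63. The joint fall and rise was seen in the medians of all 5 species, while the order of the genes within it was alike only weakly in most pairs.

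The smallest interaction p belonged to mRpL55 (limma F-test, adjusted p = 5.2e-11), a late addition to the large subunit. In D. sechellia it had 192 and 216 scaled reads at 3L, 136 and 124 at p8, 118 and 107 at p40 and 512 and 469 at AA. In D. erecta it had 289 and 299.8, 231 and 216, 135 and 137, and 879.7 and 945. Both specialists therefore had a steep adult rise, of 2.11 and 2.73 on the log2 scale. In D. ananassae mRpL55 had 496 and 399.8 scaled reads at 3L, 212 and 208 at p8, 153 and 195 at p40 and 207 and 216 at AA. D. virilis had 780.2 and 744, 571 and 606, 814 and 766, and 366 and 482. Its adult value fell by 0.91, opposite to the others, whereas the change of D. ananassae (0.29) was not called. In D. simulans it had 279.7 and 235 at 3L, 200.1 and 300.2 at p8, 254 and 239 at p40 and 475 and 500.1 at AA, a rise of 0.98.

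mRpL37 followed (limma F-test, adjusted p = 1.1e-10). D. ananassae had 15.1 and 24.8 scaled reads at 3L, 42.0 and 64.0 at p8, 185 and 202 at p40 and 30.2 and 27.1 at AA. D. simulans had 565 and 570.1, 361 and 406, 449.8 and 377, and 542 and 529. D. ananassae was far below every other species at all stages and moved in the opposite direction at p8 (1.37) and in the adult (-2.72). In D. sechellia the changes at those steps were -0.55 and 0.39, in D. simulans -0.57 and 0.38. The changes in D. erecta (-0.29 and 0.25) and D. virilis (-0.17 and -0.17) were not called, so the lower adult mRpL37 in the mean of species was called lower only in D. ananassae.

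mRpL53 rose from p8 to p40 in every species but unequally (interaction adjusted p = 3.5e-09, limma), with changes of 1.37 (D. sechellia), 1.43 (D. erecta), 0.52 (D. ananassae), 0.37 (D. virilis) and 0.96 (D. simulans). mRpL47, the counterpart of the bacterial protein L29, rose most steeply in adult D. sechellia, by 2.48, whereas the changes were 0.91 for D. erecta, -0.03 for D. ananassae (not called), 0.61 for D. virilis and 1.32 for D. simulans (interaction adjusted p = 7.5e-08, limma). Its D. sechellia libraries held 1676 and 1895 scaled reads at AA, the other species 341 to 1029.

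The rise from p40 to the adult was then set against that of D. simulans, as a difference of the changes. For D. sechellia 9 genes rose more and 1 less, a count of 10, where 22.9% of all genes were called (11.5% up, 11.4% down), and the median difference was 0.29. For D. erecta 11 rose more and 3 less, with 32.1% of all genes called (17.7% up, 14.4% down) and a median of 0.19. For D. ananassae 7 rose more and 14 less, with 34.7% called (17.8% up, 16.9% down) and a median of -0.02. For D. virilis 10 rose more and 18 less, with 47.4% called (25% up, 22.3% down) and a median of -0.06. These 4 comparisons share the D. simulans libraries, of which the p40 pair differed by 0.29 over the members. Without the shallower D. simulans library at p40 the D. sechellia count was 16, and without the shallower one at AA it was 5. With upper quartile scaling it was 24 (23 rose more), with 23.0% of all genes called (15.1% up).

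Within a stage, species were compared on the authors' normalised counts, which they scaled among the species of that stage. Of the 63 genes, 56 differed between the 5 species at 3L, 51 at p8, 50 at p40 and 60 at AA (limma F-test), where 93.4%, 90.6%, 90.2% and 94.2% of all genes did. The spread between the highest and lowest species had a median of 1.03, 0.99, 1.02 and 1.06 on the log2 scale, against 1.48, 1.58, 1.76 and 1.75 over all genes. D. virilis was the highest species for 40, 31, 40 and 25 of the 63 genes. The lowest was D. sechellia for 25 and D. ananassae for 20 at 3L, and D. ananassae for 29, 30 and 33 at the later stages. The same counts over all genes are not given here, so this order cannot be called particular to the mitoribosomal genes. Without D. virilis the count at p40 was 29 of 64, where 75.5% of all genes were called. mRpS2 was called at no stage.

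A few genes carried large and lasting differences of a single species, in which both libraries agreed at all 4 stages. mRpS28 was low in D. sechellia. It held 53.4 and 74.7 scaled reads there at 3L, 46.2 and 29.8 at p8, 61.2 and 73.2 at p40 and 53.0 and 53.7 at AA. D. simulans had 366 and 346 at 3L and 325 and 234 at AA, and the lowest library of any other species held 125. mRpS25 was high in D. virilis, at 1257 to 1860.3 scaled reads in its 8 libraries, and 165 to 465 in those of the others. mRpS30 was high in D. ananassae, at 2507 to 3019.7 scaled reads, while the others lay between 452 and 1436. mRpL46 was high in D. simulans, with 953 and 799.6 scaled reads at 3L, 858 and 883 at p8, 1435 and 1618 at p40 and 1551 and 1837 at AA. In D. sechellia it had 374 and 347, 339 and 372, 217 and 231, and 412 and 438. Levels were counted over each species' own transcript models and were not divided by their length, so the part of the models in such differences was not tested.

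**Figure D3:**
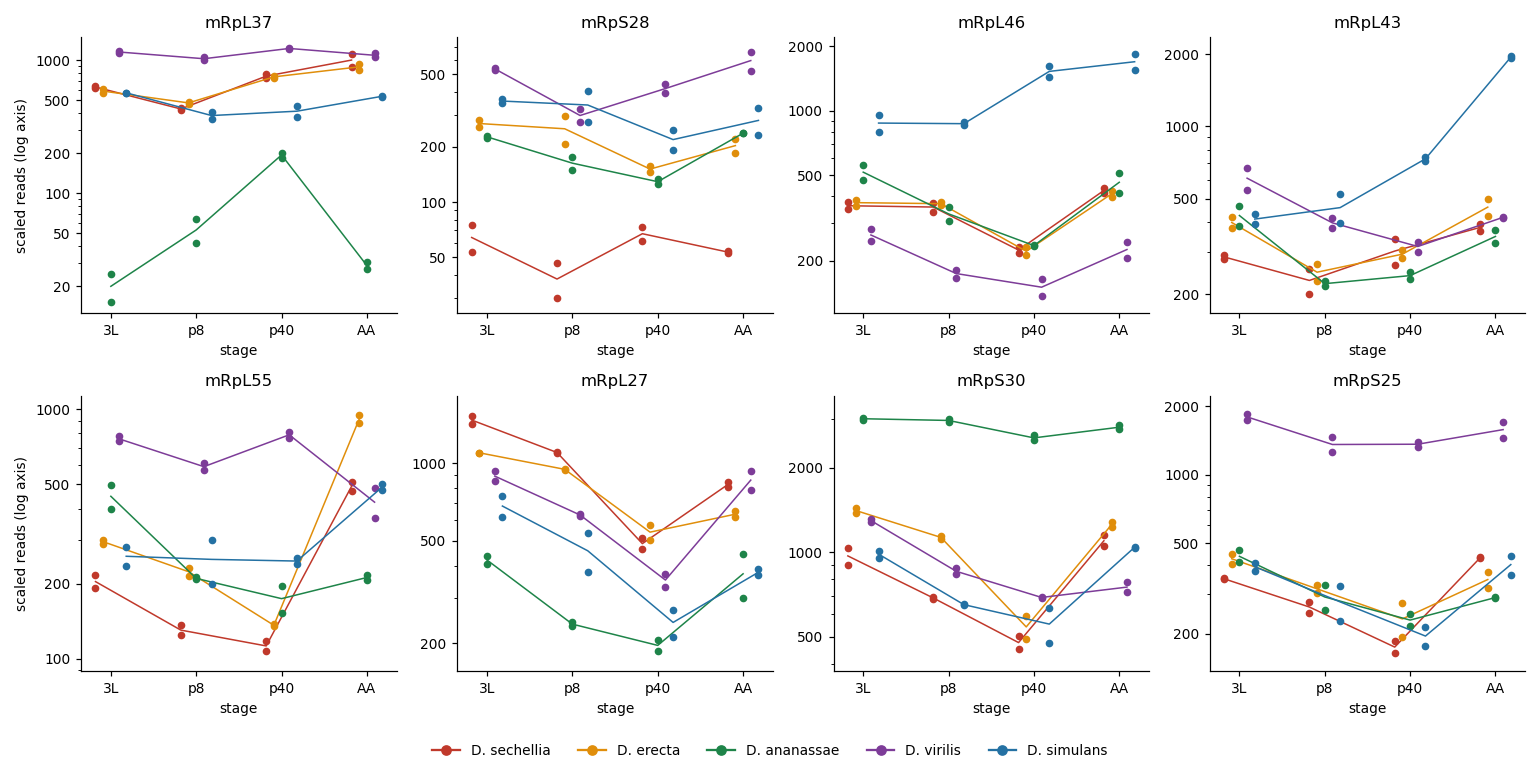
Scaled reads per library of 8 mitoribosomal genes at the 4 stages in 5 species, on a log axis. Each point is 1 library and lines join the means. mRpL37 of D. ananassae, mRpS28 of D. sechellia and mRpL46 of D. simulans lie apart from the other species at every stage, and mRpL55 crosses over in the adult.

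The study's main question concerned the specialists D. sechellia and D. erecta, which were set against D. simulans. In the adult antenna D. sechellia had 28 of 65 genes above D. simulans, where 24.6% of all genes were, and 5 below, where 23.6% were (48.2% called in all), with a median of 0.25. At the earlier stages most called genes were lower. At 3L 6 were higher (25.9% of all genes) and 16 lower (24.5%), of 50.5% called. At p8 3 were higher (25.3%) and 9 lower (24.6%), of 49.9% called, and at p40 4 were higher (23%) and 7 lower (20.4%), of 43.4% called. The medians were -0.11, -0.23 and -0.06. D. erecta had 26 of 65 genes above D. simulans in the adult (30.6% of all genes) and 9 below (28.8%), of 59.4% called, with a median of 0.18. At 3L it had 12 higher (30.7%) and 16 lower (28.6%), of 59.3% called, at p8 7 higher (29.9%) and 12 lower (27.9%), of 57.8% called, and at p40 11 higher (24.8%) and 6 lower (23.7%), of 48.5% called. The medians were -0.12, -0.10 and 0.04. Both comparisons share the D. simulans libraries. In the adult 36 of 65 genes had both libraries of the specialist above both of D. simulans, in each specialist, with 9 below in D. sechellia and 15 below in D. erecta. Over all genes 42.0% lay above and 35.8% below for D. sechellia, and 42.1% above and 39.6% below for D. erecta.

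Several of these counts depended on single libraries. At p8, where the D. simulans pair stood apart, the count for D. sechellia over D. simulans was 12 genes, and 28 without the deeper D. simulans library. For D. erecta it was 19, and 32 without that library. In the adult the D. sechellia count of 33 was 19 without its own deeper library and 19 without the shallower D. simulans library. Eye markers were higher in the adult D. sechellia antennae (a sum of 12700 scaled reads) than in D. erecta (105) or D. simulans (421), hemocyte markers summed to 2684, 385 and 908, fat body markers to 2894, 303 and 1186, and muscle markers to 3885, 8203 and 895. The part of this in the adult differences was not tested.

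Some genes were far apart in both specialists. mRpL46 was lower in both specialists. Adult D. sechellia had 389 and 412 normalised counts of it and D. erecta 363 and 391, against 1432 and 1676 in D. simulans. The authors' D. melanogaster mean was 344, on the side of the specialists. The changes were -1.95 ± 0.14 (SE, limma, adjusted p = 1.9e-05) for D. sechellia and -2.04 ± 0.14 (limma, adjusted p = 1.3e-05) for D. erecta. At p40 they reached -2.73 and -2.71. In larval discs D. sechellia had 294 and 311 normalised counts of mRpL43 and D. erecta 451 and 407, against 445 and 409 in D. simulans. The difference there was -0.50 for D. sechellia (limma, adjusted p = 0.014) and 0.01 for D. erecta, which was not called. By the adult D. sechellia had 371 and 343 and D. erecta 386 and 462, against 1775 and 1789 in D. simulans. The adult changes were -2.32 ± 0.12 for D. sechellia and -2.07 ± 0.12 for D. erecta, and the D. melanogaster mean was 359.7. mRpL27 ran the other way: adult D. sechellia had 763 and 794 normalised counts of it and D. erecta 566 and 603, against 357 and 336 in D. simulans. It was higher by 1.14, 1.25, 1.05 and 1.17 for D. sechellia, and by 0.75, 1.04, 1.23 and 0.75 for D. erecta, at 3L, p8, p40 and AA. The D. melanogaster mean (492) lay between them in the adult.

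Other genes were among the largest differences of 1 specialist. mRpS28 had 50.1 and 50.5 normalised counts in adult D. sechellia, against 299.8 and 213 in D. simulans. It was lower by -2.45, -3.16, -1.65 and -2.31 at the 4 stages. mRpL47 had 1584 and 1782 normalised counts in adult D. sechellia, against 674 and 688 in D. simulans, a difference of 1.30 ± 0.12 (SE, limma, adjusted p = 7.9e-05). At 3L, p8 and p40 its values were -0.20, -0.16 and 0.14, none called. mRpL35 was higher in adult D. sechellia by 1.05 and in D. erecta by 0.70, and mRpL37 by 0.93 and 0.74. mRpL2 had 776 and 813 normalised counts in adult D. erecta, against 376 and 328 in D. simulans, a difference of 1.18 ± 0.11 (limma, adjusted p = 5.2e-05), after -0.39 at 3L. mRpS18A (1.06), mRpL50 (1.05) and mRpS33 (1.04) were also higher in adult D. erecta, and adult D. sechellia was higher too for mRpL50 (0.82) and mRpS33 (0.61). mRpL13 had 161 and 170.3 normalised counts in adult D. erecta, against 419.8 and 364 in D. simulans, and changed by -1.23 there. Its earlier values, from -0.36 to -0.21, were not called.

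Between the specialists, D. sechellia over D. erecta gave 11 genes higher (20.3% of all genes) and 16 lower (22.1%) of 72 at 3L, where 42.4% of all genes were called. At p8 3 were higher (17.4%) and 8 lower (19.6%), of 37% called, and at p40 3 were higher (15.9%) and 5 lower (16%), of 31.9% called. In the adult 14 were higher (23.6%) and 12 lower (28.2%), of 51.8% called. The medians were -0.04, -0.03, -0.10 and 0.06. mRpS28 was lower in D. sechellia at each stage, by -2.10, -2.71, -1.20 and -1.87. In the adult mRpL13 was higher in D. sechellia by 1.73 ± 0.11 (SE, limma, adjusted p = 4.4e-05), mRpL47 by 1.14 ± 0.12 and mRpL12 by 0.98 ± 0.13.

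**Figure D4:**
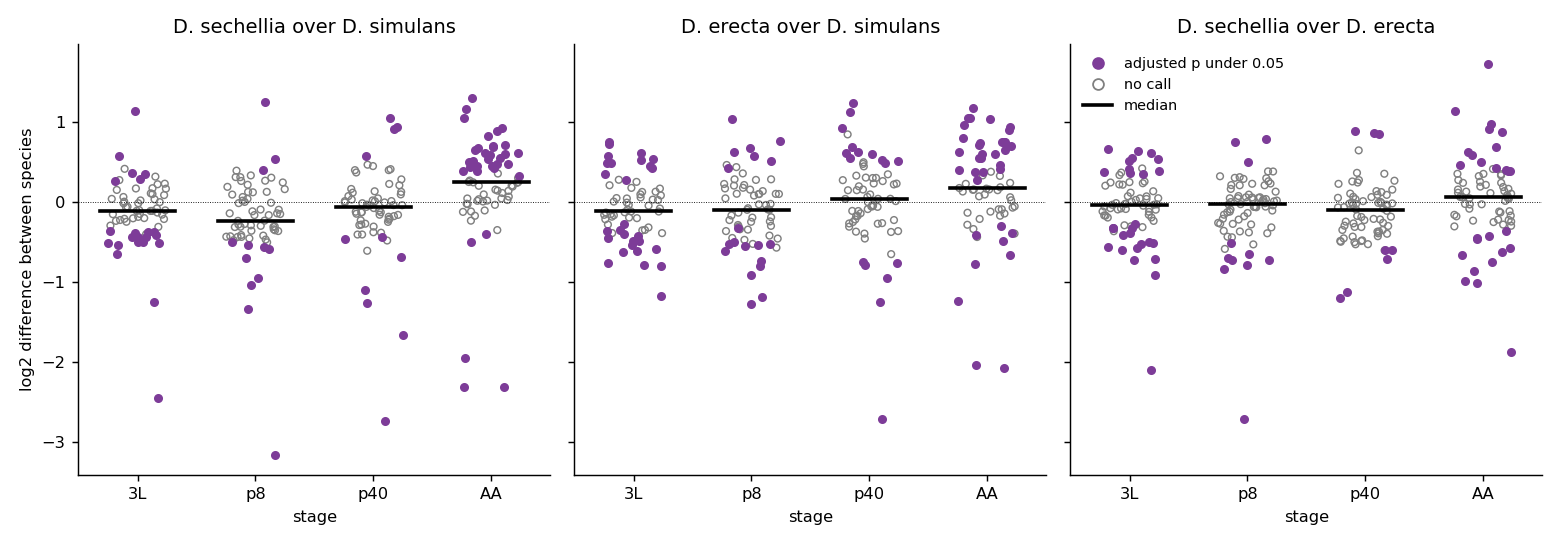
Log2 difference of each mitoribosomal gene in 3 species pairs (D. sechellia over D. simulans, D. erecta over D. simulans, and D. sechellia over D. erecta) at 4 stages. The y axis is the log2 difference and the x axis the stage. The adult medians against D. simulans lie above 0 (0.25 and 0.18), with mRpL46 and mRpL43, and mRpS28 in D. sechellia, far below.

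The last measures were those the study used for divergence, computed from the means of 6 species, D. melanogaster included. Variability was the mean absolute log2 fold change over 15 species pairs, for genes above 50 normalised counts in all species. The members' median was 0.449 ± 0.021 at 3L, 0.555 ± 0.042 at p8, 0.477 ± 0.026 at p40 and 0.521 ± 0.021 at AA. The error is the SD over 32 ways of taking 1 library per species. All genes had medians of 0.531, 0.674, 0.658 and 0.661, and 44 of 62, 44 of 61, 49 of 63 and 45 of 62 members lay below those. Averaged over the stages, 61 genes had a median of 0.489, against 0.590 over all 4676 genes. The 40 large subunit genes had a median of 0.451 and the 21 of the small subunit 0.513. mRpS2 (0.277), mRpL28 (0.300), mRpL16 (0.307), mRpS23 (0.327) and mRpL10 (0.333) varied least between species. mRpL46 (0.948), mRpS25 (0.925), mRpL55 (0.878), mRpL27 (0.860) and mRpS30 (0.805) varied most. mRpL28, the gene with the largest adult rise, was thus among those that varied least between species.

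The convergence index is positive where D. sechellia lies nearer to D. erecta than D. simulans and D. melanogaster do on average. A large value can therefore come from 1 of the generalists, as for mRpL46, which was high in D. simulans. Averaged over 3L, p8 and p40 it had a median of 0.138 ± 0.029 (SD over the same combinations) for 61 members and was positive for 47 of them (77.0%), against a median of 0.190 and 76.9% over 4887 genes. Its highest values were 1.04 for mRpL46 and 0.95 for mRpL27, and its lowest -0.26 for mRpS18C. In the adult the median was 0.0859, with 39 of 62 members positive, against 0.0916 and 58.7% positive over all genes.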

How the data were processed

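The authors sequenced stranded mRNA libraries (50-nt paired reads, base-called with CASAVA 1.8), aligned the reads with bwa 0.7.8 to each species' own annotated transcripts and normalised them with DESeq2 among the species of a stage. What they deposited is a signal: per stage, 1 mean normalised count per gene and species (24 columns, 4 of them D. melanogaster means whose libraries were not used here). No gene length or transcript model was used here.

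Each mean is a sum of whole reads of 2 libraries times 2 fixed steps, and both read numbers were solved from it. This recovery was chosen after the values were seen and was tested on simulated data. 97.1% to 100% of values by column were resolved. Between stages, reads were divided by median-of-ratios factors over 40 libraries. Genes with a mean of 10 or more were fitted with limma 3.58.1 (R 4.3.3, trend, log2(value + 1), all groups in 1 fit, Benjamini-Hochberg, threshold 0.05), so folds of low genes are understated. A fold change is on that scale. Other summaries used Python 3.11.15. The replicates were separately pooled tissue.

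Named were the 8 largest called changes per direction without overlap, called genes against the majority, up to 5 highly expressed genes without a call, genes at 0, and the 5 most and least variable genes. Genes shown for their course by species were picked after their values were seen. The members and lists were chosen with earlier results of these data known. Alternatives were other scalings, pseudocounts of 0.1 and 10, other filters, and leaving out species or libraries. Genes of other lists that stand under an old name in some species were joined by hand.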

Additional observations from a re-analysis of the deposited data

Results flagged for a closer look

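The stage course differed between species for 58 of the 63 mitoribosomal genes by the interaction F-test in limma, where 92.4% of all genes passed. For 12 of them the change at 1 step was also called in opposite directions in different species, as it was for 38.0% of all genes, and their adjusted p is that of the interaction. mRpL55 (adjusted p = 5.2e-11) and mRpL37 (1.1e-10) are described above, as is mRpL46 (1.5e-07), which at p40 over p8 changed by -0.66 (D. sechellia), -0.74 (D. erecta), -0.49 (D. ananassae) and 0.81 (D. simulans). mRpL22 (adjusted p = 3.2e-07) changed in the adult by -0.62 (D. erecta), 0.63 (D. ananassae) and 0.95 (D. virilis). mRpS33 (9.5e-05) changed at p40 by 0.87 in D. erecta and -0.45 in D. ananassae. mRpL44 (9.7e-05) changed in the adult by 0.61 in both specialists and 0.58 in D. ananassae, against -0.29 in D. virilis. mRpS10 (9.8e-05) changed in the adult by -0.57 (D. sechellia), 0.43 (D. ananassae) and -0.86 (D. simulans). mRpL50 (0.00017) changed at that step by 0.48 (D. sechellia), 0.82 (D. erecta), -0.66 (D. ananassae) and 0.49 (D. virilis). There mRpS24 (0.00028) changed by 0.71 (D. erecta), 0.41 (D. ananassae), -0.47 (D. virilis) and -0.41 (D. simulans). mRpL11 (0.00044) changed at p40 by 0.52 in D. erecta and -0.59 in D. ananassae, mRpS7 (0.0015) by 0.37 in D. ananassae and -0.32 in D. simulans, and mRpS28 (0.0018) by 0.83 (D. sechellia), -0.71 (D. erecta) and -0.61 (D. simulans).

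The rise from p40 to the adult differed from that of D. simulans for 10 genes of D. sechellia, 14 of D. erecta, 21 of D. ananassae and 28 of D. virilis. The limma contrasts of the changes share the D. simulans libraries. In each comparison the share of the members called was below the share of all genes called, which is given above.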

How the results depend on the processing

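Of 720 alternatives to 30 counts and medians, 684 stayed within 1.5 times (counts) or 1 SD (medians). The median of AA over 3L (0.05) changed sign with upper quartile scaling (-0.28) and with the authors' scaling (-0.13). Of the 36 that moved, 28 left out 1 library. Among 269 named gene results, 5385 alternatives kept direction and side of the threshold, 203 lost a call and 54 gained one. No paired analysis was possible because the recovered libraries carry no replicate numbers.

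Median variability moved to 0.473 at 3L and 0.453 at p8 without D. melanogaster, and to 0.369 at 3L, 0.361 at p40 and 0.469 at AA without D. virilis. The convergence index moved to 0.0859 when taken at AA. The species F-test at p40 called 29 of 64 genes without D. virilis. With upper quartile scaling, the adult rise of D. sechellia differed from that of D. simulans for 24 genes (23 rose more). The cause of these moves was not tested.

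Leaving out 1 library in turn, genes called over D. simulans numbered, at 3L, p8, p40 and AA, 9 to 26, 8 to 28, 6 to 13 and 19 to 34 in D. sechellia, and 22 to 32, 12 to 32, 10 to 22 and 26 to 36 in D. erecta. D. sechellia over D. erecta gave 14 to 28, 5 to 18, 2 to 10 and 15 to 28. Several libraries moved a count by over 1.5 times. The moves at p8 without the deeper D. simulans library, and at AA in D. sechellia over D. simulans, are given above. At 3L the libraries that did so in D. sechellia over D. simulans were both of D. sechellia (9 without the deeper and 13 without the shallower) and the deeper D. simulans one (11). Between the specialists they were the deeper D. sechellia library (14) and both of D. erecta (17 each). At p8 they were the deeper D. erecta library (12 in D. erecta over D. simulans and 5 between the specialists), the shallower D. sechellia one (7 between the specialists), and either D. simulans library (18 between the specialists). At p40 they were the deeper and the shallower D. sechellia library (7 and 6 over D. simulans, 3 between the specialists without the deeper), and those of D. erecta (10 and 10 over D. simulans, 2 and 5 between the specialists). At AA the count between the specialists was 15 without the shallower D. sechellia library. The species F-test gave 54 to 57, 43 to 56, 43 to 51 and 55 to 59 genes. The stage counts were 54 to 57 at p8 over 3L, 43 to 50 at p40 over p8, 60 to 62 at AA over p40 and 39 to 43 at AA over 3L, and the interaction 54 to 62. The adult rise differed from D. simulans for 5 to 16 genes in D. sechellia (6 without its deeper AA library), 8 to 15 in D. erecta (9 without its deeper p40 library, 8 without the shallower D. simulans AA one), 15 to 24 in D. ananassae and 20 to 33 in D. virilis. A lone library in such a fit is assumed to vary like the other groups.

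Depth limits genes near the lowest member value of 16 reads, such as mRpL37 in D. ananassae larval discs.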
